A study of Mus musculus with 6 samples.

Results

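Hippocampal transcripts of the AMPA-type glutamate receptor were examined in mice that carry an inducible Rbfox1 allele and in their controls. Members were 4 pore-forming subunit genes (Gria1, Gria2, Gria3 and Gria4), 3 genes of transmembrane AMPA receptor regulatory proteins (Cacng2, Cacng3 and Cacng8) and 2 cornichon genes (Cnih2 and Cnih3). All isoforms named after these genes were taken, which gave 38 of the 133944 isoforms and 9 of the 53354 gene symbols listed. Whole hippocampi of 6 C57BL/6 mice at 3 months of age were sequenced as stranded total RNA, 3 in each genotype, and reads were divided among annotated isoforms. Both genotypes carried N-cre, a Cre recombinase driven by the nestin promoter and its neural enhancer. The 3 N-cre;Fox1 mice also carried 1 copy of an Rbfox1 cDNA in the Gt(ROSA)26Sor locus, made in 129-derived embryonic stem cells and expressed from the CAG promoter once Cre has removed a loxP-flanked stop cassette. The 3 N-cre mice served as controls. The comparison asked which transcripts differ when Rbfox1, an RNA-binding regulator of splicing and transcript stability, is up-regulated in neural cells.

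AMPA receptors are tetramers of the GluA1 to GluA4 proteins, which Gria1 to Gria4 encode, and they carry most of the fast excitatory transmission in the brain. Each subunit gene holds a pair of mutually exclusive exons called flip and flop, which encode alternative forms of a segment of the ligand-binding domain and set how fast the channel desensitizes. The regulatory proteins stargazin (Cacng2), TARP γ-3 (Cacng3) and TARP γ-8 (Cacng8), and the cornichons CNIH2 and CNIH3, associate with the subunits and influence receptor traffic and gating. TARP γ-8 is best known from the hippocampus.

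The flip and flop exons were each 115 bases long in all 4 subunit genes. They are shown for Gria2, whose flip isoform had the lowest unadjusted p of the member isoforms, and for Gria3, whose annotated flip and flop isoforms are the most unequal in level. Sequences are from the mouse GRCm38 (mm10) transcripts, read 5′ to 3′ along the transcript, and capitals mark the bases at which the flip and the flop exon of the same gene differ.
Gria2 flip, chr3:80690404-80690518, minus strand: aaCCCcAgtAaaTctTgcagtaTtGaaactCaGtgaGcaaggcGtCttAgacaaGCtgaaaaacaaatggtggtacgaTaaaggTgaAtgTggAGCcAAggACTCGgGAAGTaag
Gria2 flop, chr3:80691320-80691434, minus strand: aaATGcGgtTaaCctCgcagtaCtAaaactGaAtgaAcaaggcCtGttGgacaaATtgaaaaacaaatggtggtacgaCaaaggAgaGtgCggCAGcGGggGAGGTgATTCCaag
Gria3 flip, chrX:41669501-41669615, plus strand: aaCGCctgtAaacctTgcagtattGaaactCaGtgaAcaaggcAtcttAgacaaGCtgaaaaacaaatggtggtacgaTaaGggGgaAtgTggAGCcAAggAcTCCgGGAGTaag
Gria3 flop, chrX:41654810-41654924, plus strand: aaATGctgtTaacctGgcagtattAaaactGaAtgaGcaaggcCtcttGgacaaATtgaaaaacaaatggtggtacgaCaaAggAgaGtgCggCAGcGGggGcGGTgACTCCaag
The Gria2 exons differed at 36 of 115 bases and those of Gria3 at 32. The Gria1 exons (flip chr11:57310608-57310722 and flop chr11:57309769-57309883, plus strand) differed at 36 bases, and those of Gria4 (flip chr9:4427030-4427144 and flop chr9:4432773-4432887, minus strand) at 31. The flop exon comes before the flip exon in transcript order in all 4 genes. Of the 38 isoforms, 14 hold at least 1 of these exons over its full length, and 2 of these hold both (Gria2-203 and Gria3-206, annotated as targets of nonsense-mediated decay).

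Libraries held between 40463587 and 62141336 estimated counts, and the 9 genes took 0.252% to 0.275% of them. The gene sum of Rbfox1 itself did not separate the genotypes, at 14813 ± 427 (SD, n = 3) normalized counts in N-cre and 14931 ± 1223 in N-cre;Fox1 mice. Its shorter isoform Rbfox1-202 stood above every control in 3 of 3 N-cre;Fox1 mice, at 2317 ± 136 against 1804 ± 67.5 normalized counts (log2 fold change 0.36, SE 0.059, edgeR quasi-likelihood test, adjusted p = 0.623). The groups of 11.5% of all isoforms tested did not overlap. Directions given here therefore compare the groups as labelled. Xist, which is transcribed from an inactive X chromosome, stood at 23514 and 22029 normalized counts in replicate 1 of the N-cre and of the N-cre;Fox1 group and between 17.3 and 22.2 in the other 4 mice. Of the 13 lists of cell type markers, the summed level of astrocyte genes was the only one that did not overlap between genotypes, at 3464 to 3600 CPM in the controls against 3699 to 4036, with all 6 astrocyte genes detected. Over all genes tested, 12.2% of gene sums did not overlap between genotypes. Neuron markers ranged from 6907 to 7264 and from 6495 to 7241 CPM, and choroid plexus markers varied widely between mice of both groups, from 25.5 to 2203 and from 26.5 to 4961.

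Levels are given per length, as normalized counts per kilobase of annotated transcript summed over a gene's isoforms. Cnih2 was the most abundant of the 9 at a mean over the 6 mice of 11790, above Gria1 at 10900 and Gria2 at 6096. Cacng8 followed at 2583, Gria3 at 2264, Cnih3 at 1190, Cacng3 at 1103, Gria4 at 792 and Cacng2 at 596 normalized counts per kilobase. Cnih2 and Gria1 were above 98% of the genes tested on this scale (98.8% and 98.7%), and Cacng2 was above 66.1%. Neighbours in this order that did not differ beyond the spread over the 6 mice were Cnih2 and Gria1 (10531 to 12632 against 9876 to 11660), Cacng8 and Gria3 (2388 to 2768 against 2146 to 2389), and Cnih3 and Cacng3 (1093 to 1280 against 1044 to 1251). Within single mice Cnih2 still exceeded Gria1 in 6 of 6 and Cacng8 exceeded Gria3 in 6 of 6, while Cnih3 exceeded Cacng3 in 5 of 6. These levels depend on the annotated ends of the transcripts, since a missing or surplus 3′ end changes the length by which a count is divided. The length of Cnih2-201 (1343 bases) was read from another version of this isoform than the one counted. The order of Cnih2 and Gria1 rests on that length in every mouse. By genotype, the level per length did not overlap for 1 of the 9 genes, Gria2 (5886 to 6091 in the controls against 6117 to 6305), where 12.2% of all genes did not overlap. Without division by length the Gria2 sums overlapped (37565 to 38003 against 37020 to 38441 normalized counts). Division by length gives a count of Gria2-202 (4026 bases) more weight than a count of Gria2-201 (10371 bases). The Gria2 level per length therefore also moves with the isoform shares given below.

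**Figure D1:**
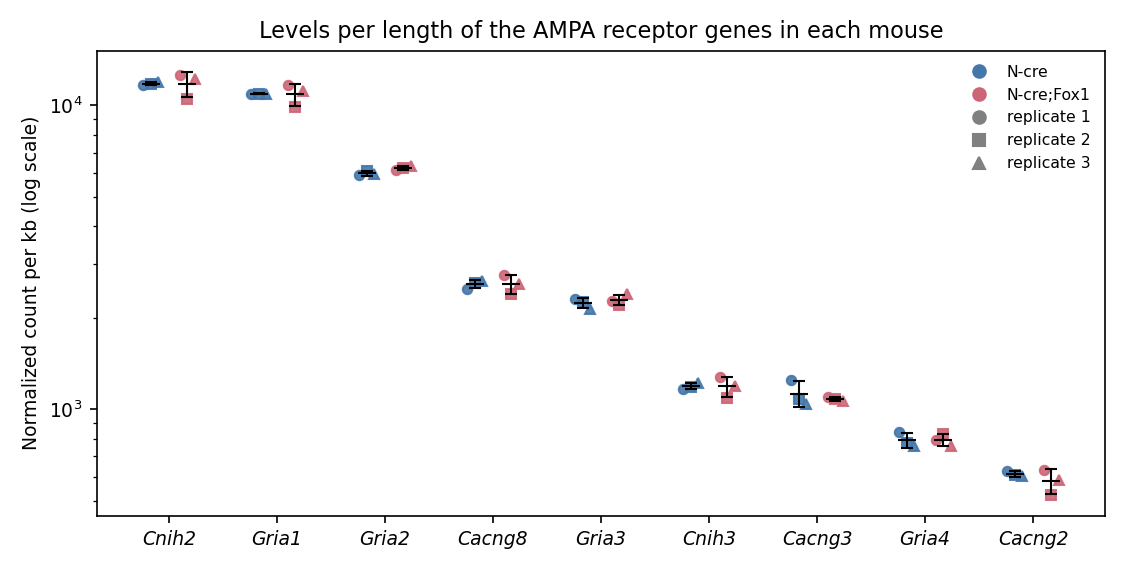
Normalized count per kilobase (log axis) of each gene in each of the 6 mice, ordered from the highest to the lowest mean. Symbols mark replicate numbers and bars the mean ± SD of 3 mice. The N-cre and N-cre;Fox1 points of each gene lie close on this axis, and they overlap for all genes but Gria2. Cnih2 and Gria1 are highest and Cacng2 is lowest.

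The summed transcripts of none of the 9 genes differed between genotypes by the edgeR quasi-likelihood test (0 of 9 with an adjusted p under 0.05, where 0.0264% of all 18924 genes were called, and 0 of 9 with an unadjusted p under 0.05, where 6.19% were). DESeq2 and limma-voom likewise called 0 of the 9. The lowest unadjusted p was 0.222, and the groups overlapped for all 9 genes, against 12.2% of all genes whose groups did not overlap. Log2 fold changes ran from -0.08 to 0.03, with 4 genes above and 5 below 0, and their median size, 0.0042, can be set beside 0.0668 over all genes tested. Each of the 9 was above at least 66.1% of the genes tested per length, and genes of like level were not compared.

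Gria1 (chr11:57011387-57330244, plus strand), the subunit gene with the highest level, had gene sums of 59403, 59044 and 59412 normalized counts in the N-cre mice and of 63376, 53562 and 60401 in the N-cre;Fox1 mice. The controls lay close together and inside the range of the N-cre;Fox1 mice, which held both the highest and the lowest value. Its log2 fold change was -0.00 (SE 0.057), with a 95% interval that allows a change from -8.69% to 8.87%.

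Gria2 (chr3:80681450-80802835, minus strand), which encodes the subunit that makes the channel nearly impermeable to calcium once its transcript is edited, had sums of 37778, 38003 and 37565 in N-cre and 38199, 37020 and 38441 in N-cre;Fox1 mice. The N-cre;Fox1 values again lay on both sides of the controls. The interval of its log2 fold change of 0.00 (SE 0.038) covers changes from -5.38% to 6.27%, the narrowest of the 9 genes.

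Gria3 (chrX:41400854-41678601, plus strand) had sums of 11680, 11459 and 10877 normalized counts in N-cre and 11480, 11200 and 12130 in N-cre;Fox1 mice (log2 fold change 0.03, SE 0.041). The 2 mice with a high Xist level, at 11680 and 11480, were within the range of the other 4. Gria4 (chr9:4417896-4796234, minus strand) had the lowest level among the subunits, with sums of 3700, 3450 and 3298 in N-cre and 3450, 3669 and 3355 in N-cre;Fox1 mice (log2 fold change 0.00, SE 0.049), and the groups covered nearly the same range. As proportions of the 4 subunits per length, Gria1 made up 54.8% ± 0.427 (SD, n = 3) in N-cre and 53.9% ± 2.16 in N-cre;Fox1 mice, Gria2 30.0% ± 0.501 and 30.8% ± 1.56, Gria3 11.2% ± 0.361 and 11.4% ± 0.404, and Gria4 3.97% ± 0.208 and 3.94% ± 0.344. None of these proportions separated the genotypes (two-sided exact permutation tests, p = 0.5 to 0.8). With 3 mice against 3 this exact test cannot go below p = 0.1, which is reached when the groups do not overlap.

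Gria2 held the isoform with the lowest unadjusted p among the members. Its flip isoform had a higher mean and its flop isoform a lower mean in the N-cre;Fox1 mice, while the gene sum stayed level, although neither isoform passed the edgeR test over all isoforms. The flip isoform Gria2-202 had 11234, 11780 and 11686 normalized counts in N-cre and 12445, 12935 and 12906 in N-cre;Fox1 mice. All 3 N-cre;Fox1 mice were thus above all 3 controls, where the groups of 11.5% of all isoforms did not overlap. The log2 fold change was 0.14 (SE 0.034, 95% interval 0.06 to 0.22). By edgeR over 50556 isoforms it had an unadjusted p of 0.00529 (4.78% of all isoforms had one under 0.05) and an adjusted p of 0.843. It was the only member isoform called by DESeq2 (adjusted p = 0.0216, where 0.425% of all isoforms were called), and its adjusted p ranged from 0.0216 to 0.9997 over 14 alternative analyses, all of which gave a higher level in N-cre;Fox1 mice. In simulated counts, DESeq2 also called many isoforms that had not been changed.

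The flop isoform Gria2-201 had 23643, 22733 and 22680 normalized counts in N-cre and 22725, 20414 and 21992 in N-cre;Fox1 mice. Its groups overlapped narrowly (log2 fold change -0.08, SE 0.047, edgeR adjusted p = 0.990). In mean counts, Gria2-202 was 1195 higher in the N-cre;Fox1 mice and Gria2-201 differed by -1309, so that the gene sum hardly moved. The minor Gria2-203 isoform, which holds both exons, had 698 ± 122 (SD, n = 3) and 821 ± 80.5 normalized counts, and the retained-intron isoform Gria2-206 had 2084 ± 149 and 2113 ± 302.

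As a share of the counts of Gria2 isoforms with a single one of the exons, flip made up 32.2%, 34.1% and 34.0% in N-cre and 35.4%, 38.8% and 37.0% in N-cre;Fox1 mice. The difference in means was 3.60 points, and the groups did not overlap (two-sided exact permutation test, p = 0.1, the smallest it can give, and 0.912 after adjustment over 31 shares and ratios). Divided by annotated length, the flip share was 56.4% ± 1.195 (SD, n = 3) in N-cre and 60.2% ± 1.75 in N-cre;Fox1 mice. Flop thus held more of the Gria2 counts and flip more of the counts per length. A longer isoform gives more counts per transcript, so the share of counts is not a share of transcripts. The share per length stands for transcripts only as far as the annotated lengths hold. The shorter Gria2-202 has 4026 bases with a last exon of 920, whereas Gria2-201 has 10371 bases with a last exon of 7265, and no listed isoform pairs flip with the long end. The flip share of Gria2 and the share of transcripts with a short 3′ end therefore cannot be told apart in these counts. Of the 13 member isoforms with a mean share of 5% to 95% of their gene, 2 did not overlap between genotypes, Gria2-201 and Gria2-202, where 11.4% of such isoforms over all genes did not. The astrocyte marker sum also did not overlap between the genotypes, where 12.2% of all gene sums did not. Of its 6 genes, 4 were higher with an unadjusted p under 0.05 by edgeR, where 680 of all 18924 genes were. An adjusted p under 0.05 was seen for 0 of the 6, where 0.0264% of all genes had one. The part of the astrocyte marker sum in the Gria2 difference was not tested. In these bulk samples, more cells of a type and more RNA per cell cannot be told apart.

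**Figure D2:**
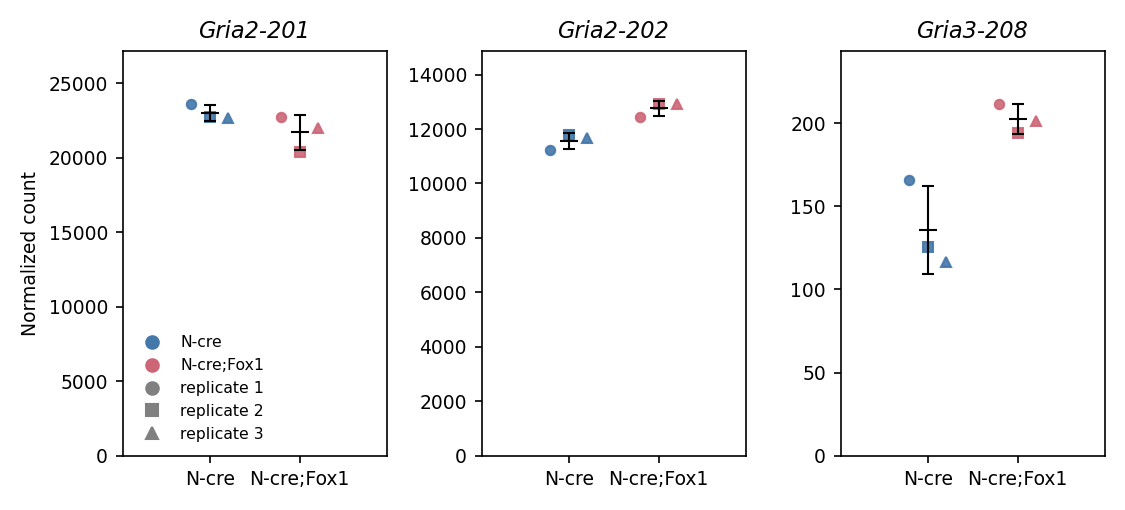
Normalized counts of Gria2-201 (flop, long 3′ end), Gria2-202 (flip, short 3′ end) and Gria3-208 (flop, retained intron) in each mouse, on axes that start at 0, with the mean ± SD of 3 mice. The groups do not overlap for Gria2-202 and Gria3-208 and overlap narrowly for Gria2-201.

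In Gria1 the flop isoform Gria1-202 was the more common, at 60.8% of the gene's counts over the 6 mice, and the flip isoform Gria1-201 took 39.1%. The flip share was 37.1%, 38.9% and 40.3% in N-cre and 39.6%, 39.3% and 40.1% in N-cre;Fox1 mice. The N-cre;Fox1 mice fell inside the range of the controls (0.893 points higher in the mean, two-sided exact permutation test, p = 0.5). The Gria1 isoforms end in last exons of nearly the same length (2802 and 2801 bases), and division by length left the share at 38.2% ± 1.58 (SD, n = 3) and 39.0% ± 0.419. Gria1-204, a rarely assigned flip isoform, ranged from 0 to 208 normalized counts within the control group alone.

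In Gria3 the flip isoform Gria3-201 held 76.5% of counts, and the single-exon flip share was 95.6%, 95.1% and 95.9% in N-cre and 95.03%, 94.9% and 95.3% in N-cre;Fox1 mice. The groups overlapped (difference -0.489 points, two-sided exact permutation test, p = 0.2), and the difference turned to 0.194 points when only protein-coding isoforms were counted. A further 19.0% of Gria3 counts went to Gria3-206, which holds both exons, and Gria3-202, the protein-coding flop isoform, had only 2.31%. The annotation bears on this share: the long last exon of 2262 bases is paired with flip in Gria3-201, that of 2259 bases with both exons in Gria3-206, and the flop isoforms end after 246 to 253 bases. Reads of a flop transcript with the long end have no isoform of their own in this annotation.

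Gria3-208, a retained-intron isoform with the flop exon and 1.47% of the gene's counts, had 166, 126 and 116 normalized counts in N-cre and 212, 194 and 202 in N-cre;Fox1 mice. All 3 N-cre;Fox1 mice were above the controls (log2 fold change 0.57, SE 0.17), with an unadjusted p of 0.0151 and an adjusted p of 0.990 by edgeR and an adjusted p of 0.609 by DESeq2. Over all isoforms tested, 11.5% did not overlap between genotypes and 4.78% had an unadjusted p under 0.05 by edgeR. Isoforms annotated as retained introns or as targets of nonsense-mediated decay together held 20.7% ± 1.07 (SD, n = 3) of Gria3 counts in N-cre and 21.6% ± 3.22 in N-cre;Fox1 mice. For Gria2 this share was 8.52% ± 0.718 and 8.96% ± 1.03, and it overlapped between the genotypes in both genes.

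In Gria4 flop was the more common form. The flip share was 23.6%, 24.97% and 28.1% in N-cre and 26.4%, 25.9% and 28.6% in N-cre;Fox1 mice, with overlapping groups (difference 1.44 points, two-sided exact permutation test, p = 0.4). The flop reads were split between Gria4-201 and Gria4-204, which differ at their 5′ ends, and this split varied among mice of a group. Gria4-204 had 655.5, 519 and 693 normalized counts in N-cre and 248, 418 and 747 in N-cre;Fox1 mice, so that the N-cre;Fox1 group held both the highest and the lowest value (log2 fold change -0.40, SE 0.39, edgeR adjusted p = 0.990). Gria4-203, a shorter protein-coding isoform that ends before both exons, held 16.9% of counts and had 584 ± 36.9 (SD, n = 3) and 595 ± 48.9 normalized counts.

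**Figure D3:**
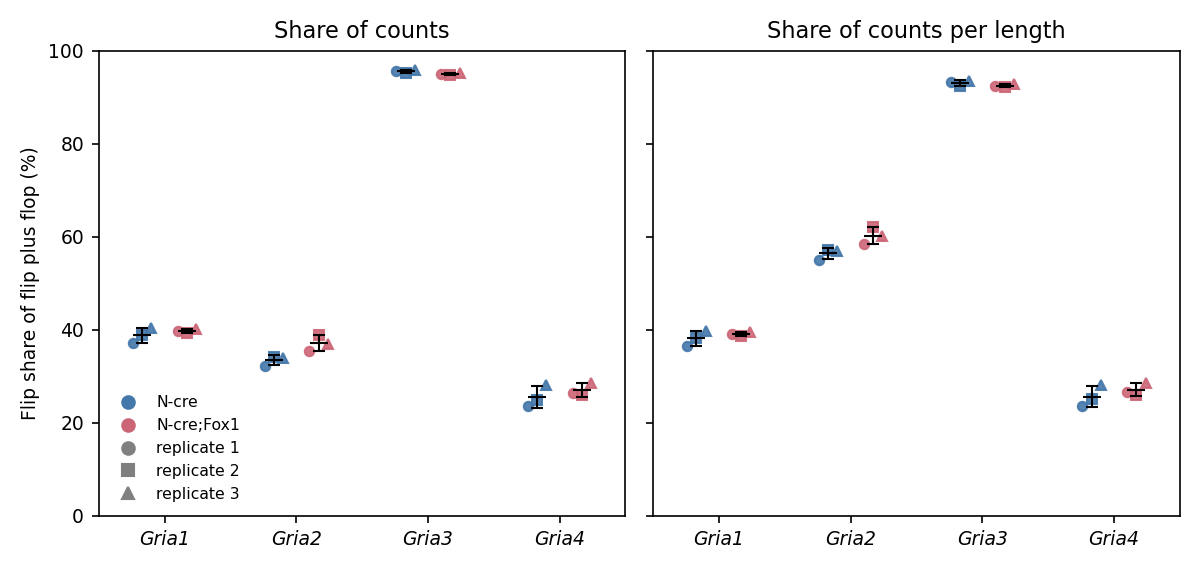
Flip share (%) among isoforms that hold either the flip or the flop exon, for each subunit gene and mouse, of counts (left) and of counts divided by annotated length (right), with the mean ± SD of 3 mice. The groups are separate for Gria2 only, and Gria2 is the gene whose share depends on the scale, at 33.4% and 37.1% from counts and 56.4% and 60.2% per length.

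Gria3 had the highest and Gria4 the lowest flip share in 6 of 6 mice on both scales. Counting error was small beside the spread between mice for the abundant genes: the 95% Wilson interval of the Gria2 flip share in the shallowest library ran from 33.4% to 34.6%, on 26294 counts. For Gria4 in the same library it was 26.2% to 30.1% on 2076 counts, against a range of 23.6% to 28.6% over the 6 mice. These intervals cover counting error only, and not the error of dividing reads among isoforms.

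Over all member isoforms, 30 of 38 passed the filter on low counts and were tested, and 2 of the other 8 (Gria2-208 and Gria3-209) were at 0 in every mouse. Of these, 0 had an adjusted p under 0.05 by edgeR (0% of all 50556 isoforms did), 0 by limma-voom and 1 by DESeq2. An unadjusted p under 0.05 by edgeR was seen for 2 of 30, Gria2-202 and Gria3-208, where 4.78% of all isoforms had one, and the same 2 had groups that did not overlap, where 11.5% of all isoforms did. Isoform use, the change of an isoform relative to the rest of its gene, was called for 0 of the 28 isoforms in 7 genes (edgeR, lowest unadjusted p = 0.182, 0 with an unadjusted p under 0.05), where 0.214% of all isoforms were called and 1.81% had an unadjusted p under 0.05. In simulated counts, where the changes made were far larger than that of Gria2-202, this test found few of the changed isoforms. Its 0 calls therefore leave changes of use possible. The same question put to limma gave adjusted p = 0.0814 for Gria2-201 and 0.176 for Gria2-202, with 0 called, and limma on log ratios within genes, added after the data were seen, gave 0.906 for both but found none of the changed isoforms in the simulated counts.

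**Figure D4:**
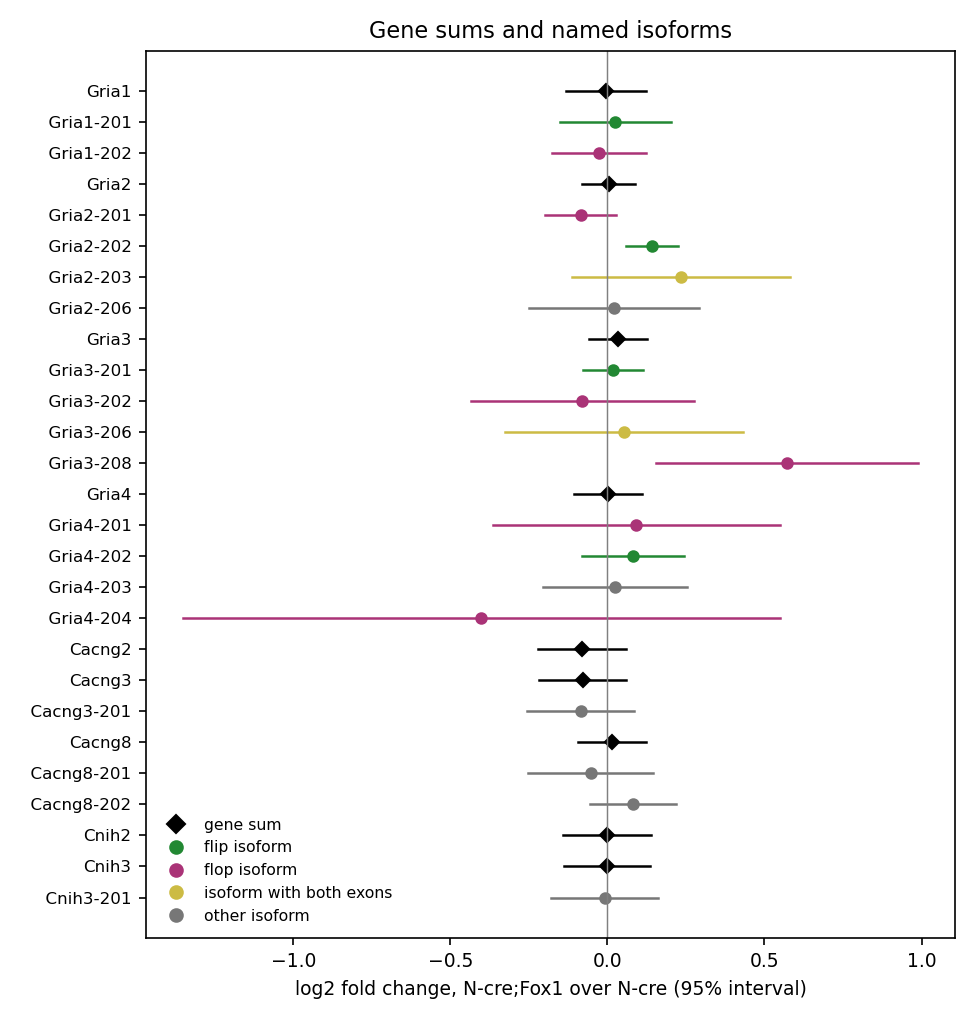
Log2 fold changes (N-cre;Fox1 over N-cre) with 95% intervals for the 9 gene sums (diamonds) and the named isoforms (circles, coloured by the exon they hold), from the edgeR fits, with Gria1-204 left out for its width (-3.95 to 4.99). The gene sums lie at 0 within their intervals, and the intervals of Gria2-202 and Gria3-208 lie above 0 before adjustment for the number of isoforms tested.

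Among the TARP genes, Cacng8 (chr7:3390683-3415648, plus strand) had sums of 3953, 4118 and 4141 normalized counts in N-cre and 4394, 3826 and 4109 in N-cre;Fox1 mice. The groups overlapped (log2 fold change 0.01, SE 0.048). Its isoforms Cacng8-201 and Cacng8-202 shared the counts about equally, at 50.4% ± 1.70 (SD, n = 3) and 49.0% ± 1.79 in N-cre and at 48.2% ± 2.21 and 51.4% ± 2.11 in N-cre;Fox1 mice, again with overlap (two-sided exact permutation tests, p = 0.3 for both). Cacng2 (chr15:77991748-78120028, minus strand) had sums of 3459, 3351 and 3323 in N-cre and 3482, 2887 and 3213 in N-cre;Fox1 mice. N-cre;Fox1 replicate 1 was the highest and replicate 2 the lowest of the 6 (log2 fold change -0.08, SE 0.062, interval -0.22 to 0.06), and the log2 fold change was -0.012 without replicate 2 and -0.14 without replicate 1.

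Cacng3 (chr7:122670492-122769393, plus strand) had 3197, 2733 and 2698 normalized counts in N-cre and 2729, 2730 and 2726 in N-cre;Fox1 mice, a log2 fold change of -0.08 (SE 0.061). Its difference rested on N-cre replicate 1, and without that mouse the log2 fold change was 0.01. Per length, Cacng8 made up 59.8% ± 2.45 (SD, n = 3) of the 3 TARP genes in N-cre and 60.8% ± 0.900 in N-cre;Fox1 mice, Cacng3 26.01% ± 2.29 and 25.5% ± 1.37, and Cacng2 14.2% ± 0.162 and 13.6% ± 0.471. None separated the genotypes (two-sided exact permutation tests, p = 0.2 to 0.8).

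Cnih2 (chr19:5092868-5098521, minus strand), listed with a single isoform, had sums of 15729, 15746 and 16037 normalized counts in N-cre and 16965, 14143 and 16384 in N-cre;Fox1 mice. As for Gria1, the N-cre;Fox1 mice held both ends of the range (log2 fold change -0.00, SE 0.062). Cnih3 (chr1:181352628-181460641, plus strand) followed the same order, with 2979, 3075 and 3105 in N-cre and 3291, 2749 and 3106 in N-cre;Fox1 mice (log2 fold change -0.00, SE 0.060). Per length, Cnih2 made up 90.8% of both cornichons in each genotype (SD 0.0899 and 0.250, n = 3). Relative to the summed subunits, there were 21.7 ± 0.208 TARP transcripts per 100 subunit transcripts in N-cre and 21.01 ± 0.518 in N-cre;Fox1 mice (two-sided exact permutation test, p = 0.2). The groups overlapped on this scale but not without division by length (-0.278 points) or with protein-coding isoforms only (-0.648 points), where the same exact test gave p = 0.1, the smallest it can give. Those p-values were not adjusted, and the main scale had an adjusted p of 0.912 by this test over 31 shares and ratios. No share over all genes was computed for such ratios. For single genes, 12.2% of levels per length did not overlap between genotypes. For the cornichons the ratio was 65.2 ± 1.10 per 100 in N-cre and 64.2 ± 3.08 in N-cre;Fox1 mice (p = 0.9 by the same exact test).

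The spread among mice was larger in the N-cre;Fox1 group for 7 of the 9 genes, all but Gria4 and Cacng3, where it was larger for 58.8% of all genes. N-cre;Fox1 replicate 2 held the lowest of the 6 values for 6 of the 9 genes (Gria1, Gria2, Cacng2, Cacng8, Cnih2 and Cnih3), where it did so for 23.3% of all genes. N-cre;Fox1 replicate 1 held the highest value for 5 of these (Gria1, Cacng2, Cacng8, Cnih2 and Cnih3), where it did so for 17.5% of all genes. Low values in N-cre;Fox1 replicate 2 were not limited to the members. That mouse was also the lowest of the 6 for the Rbfox1 gene sum (13571 normalized counts). The same held for Olfm1 (45459), Nsf (62072) and Nptxr (57004), the 3 genes of the related list below with the highest level per length.

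Other genes of AMPA receptor assembly, traffic and anchoring were read from a list of 42, of which 41 were tested. By edgeR 0 had an adjusted p under 0.05 (0 by DESeq2 as well, lowest edgeR adjusted p = 0.799), and 1 of 41 had an unadjusted p under 0.05, where 6.19% of all genes had one. This was Lrrtm4, a synaptic adhesion protein found with AMPA receptors, with 1898, 1920 and 1825 normalized counts in N-cre and 1955, 2022 and 2053 in N-cre;Fox1 mice. All 3 N-cre;Fox1 mice were above the controls (log2 fold change 0.10, SE 0.042, unadjusted p = 0.0479, edgeR adjusted p = 0.799). Over the list, 15 genes were higher and 26 lower, with a median log2 fold change of -0.02, against a median of 0 over all genes tested, and 2 of 41 (Lrrtm4 and Grip2) did not overlap between genotypes, where 12.2% of all genes did not. The 3 with the highest level per length, Olfm1 (a secreted synaptic protein), Nsf (the ATPase that takes SNARE complexes apart and binds GluA2) and Nptxr (a neuronal pentraxin that gathers AMPA receptors), had log2 fold changes of 0.01, 0.01 and 0.03 (SE 0.048, 0.049 and 0.059). Log2 fold changes over the list ran from -0.30 to 0.54, the highest being that of Arc, an activity-regulated gene that drives receptor removal from the surface, which did not pass the test (edgeR adjusted p = 0.863).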

How the data were processed

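Hippocampal RNA of 6 mice (3 N-cre and 3 N-cre;Fox1, grouped by their genotype labels) was sequenced by the authors with a stranded total RNA kit. Per the labels' processing notes the tools included cutadapt 1.18, STAR 2.5.2b, Picard 1.119 and RSEM 1.3.0 on build mm10. The deposited table holds RSEM expected counts per isoform, not normalized, of which 81.9% to 82.7% of the values above 0 are not whole. Flip and flop exons were found as protein-coding exons that encode the residues known of each form. The authors counted against GENCODE M16 and tested isoforms with EBSeq, which was not used here. Lengths, types and exons were read from GENCODE M21 on the same build, in which 37 of the 38 member isoforms had the same version and Cnih2-201 another.

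Expected counts were rounded for the count tests, and features with low counts were left out by the filterByExpr function of edgeR. Gene sums, isoform counts and isoform use (diffSpliceDGE) were tested with edgeR 4.0.16 (R 4.3.3) by quasi-likelihood tests with TMM normalization and Benjamini-Hochberg adjustment over all features tested, without a replicate block. Normalized counts are TMM-scaled to the mean library. Shares and proportions were computed per mouse from unrounded counts and compared by exact permutation tests (SciPy 1.17.1). Nothing in the labels says which mice were littermates, so the main tests treat the mice as independent, and their p-values do not account for shared litters. Alternatives used DESeq2 1.42.0, limma 3.58.1, other size factors, filters and length scales, a replicate block, and each mouse left out. Limma on log ratios within genes and the counting of isoforms with both exons as flop were added after the data were seen. Scripts were tested on simulated data.

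The members, lists and tests were chosen with earlier results of these data known. Named in the text are all 9 genes, their isoforms with a mean share of at least 5%, with a flip or flop exon or with an unadjusted p under 0.05, and of the related list those with an unadjusted p under 0.05 and the 3 with the highest level per length. Arc and Grip2 were named after their values were seen. Reads that could come from several isoforms were divided by RSEM, so that isoform counts carry an error that the tests do not see.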

Additional observations from a re-analysis of the deposited data

How the results depend on the processing

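None of the 9 gene sums was called under any of the 14 alternatives, and the isoform and isoform-use calls stayed at 0 except that DESeq2 called 1 isoform, Gria2-202 (log2 fold change 0.14, adjusted p = 0.0216). The related list stayed at 0 calls. Over all features, edgeR called 5 gene sums against 50 by DESeq2 and 45 with no filter, 0 isoforms against 215 by DESeq2, 10 with no filter and 6 with at least 10 counts in every mouse, and isoform use 91 times against 149 by limma-voom and 44 with at least 10 counts. Signs changed as follows. Among the gene sums, the log2 fold change of Gria1 became 0.00024 with no filter beyond 1 count, that of Gria2 -0.0060 and of Gria4 -0.0074 with upper-quartile normalization, and that of Gria4 -4.3e-05 with limma-voom. That of Cnih2 became 0.00085 with DESeq2 size factors, 0.0038 with no filter, 0.0022 with at least 10 counts in every mouse and 0.00083 by DESeq2, that of Cnih3 0.0025 with no filter and 0.00095 with at least 10 counts, and that of Cnih2-201 0.0021 with no filter. The share of Gria2-206 differed by -0.217 points per length, the flip share of Gria3 by 0.194 points among protein-coding isoforms, and the proportion of Gria4 by 0.0134 points without division by length.

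With each mouse left out in turn, log2 fold changes that crossed 0 were those of Cacng3 (-0.12 to 0.011), Cacng8 (-0.032 to 0.065), Cacng8-201 (-0.10 to 0.023), Cnih2 (-0.049 to 0.076), Cnih2-201 (-0.058 to 0.071), Cnih3 (-0.055 to 0.070), Cnih3-201 (-0.060 to 0.062), Gria1 (-0.053 to 0.064), Gria1-201 (-0.029 to 0.10), Gria1-202 (-0.084 to 0.032), Gria1-204 (-0.056 to 3.10), Gria2 (-0.0063 to 0.022), Gria2-206 (-0.095 to 0.11), Gria3-201 (-0.0094 to 0.050), Gria3-202 (-0.15 to 0.046), Gria3-206 (-0.15 to 0.15), Gria4 (-0.033 to 0.054), Gria4-201 (-0.032 to 0.25), Gria4-203 (-0.030 to 0.085), Nptxr (-0.0093 to 0.11), Nsf (-0.028 to 0.059) and Olfm1 (-0.032 to 0.056). Differences in points that crossed 0 were those of the Cnih2 and Cnih3 per 100 of Gria1 to Gria4 (-2.266 to 0.7215), the isoform share of Cnih3-201 (-1.375 to 0.7323), the isoform share of Gria2-206 (-0.411 to 0.4729), the isoform share of Gria3-201 (-1.581 to 1.061), the isoform share of Gria3-206 (-1.789 to 1.222), the isoform share of Gria4-201 (-0.06316 to 7.576), the isoform share of Gria4-203 (-0.4452 to 0.7017), the proportion of Cacng3 among Cacng2, Cacng3 and Cacng8 (-1.345 to 0.8109), the proportion of Cacng8 among Cacng2, Cacng3 and Cacng8 (-0.3611 to 1.955), the proportion of Cnih2 among Cnih2 and Cnih3 (-0.1214 to 0.1272), the proportion of Gria1 among Gria1 to Gria4 (-1.909 to 0.245), the proportion of Gria2 among Gria1 to Gria4 (-0.03957 to 1.516), the proportion of Gria3 among Gria1 to Gria4 (-0.07739 to 0.3533), the proportion of Gria4 among Gria1 to Gria4 (-0.2204 to 0.1042), the retained-intron and decay share of Gria2 (-0.055 to 0.9745) and the retained-intron and decay share of Gria3 (-1.025 to 1.893). Isoform shares that did not overlap numbered 2 to 8, without a share over all genes for these smaller sets of mice. The difference in flip share stayed between 2.73 and 4.44 points for Gria2, and the log2 fold change between 0.12 and 0.16 for Gria2-202.

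Without N-cre replicate 3 or N-cre;Fox1 replicate 3, 5 and 8 isoform shares (retained-intron and decay shares included) did not overlap in place of 2, with fewer mice to compare. The cause of the other changes was not tested. The deviations of same-numbered mice had r = 0.378 for replicate 1, the pair with a high Xist level, and r = -0.0951 and -0.211 for replicates 2 and 3. Mice of unlike number ranged from r = -0.374 (N-cre replicate 1 with N-cre;Fox1 replicate 2) to 0.439 (N-cre replicate 3 with N-cre;Fox1 replicate 2). The numbers were therefore not taken to pair the mice. With a replicate block 0 gene sums, 0 isoforms and 0 isoform-use differences of the members and 0 related genes were called, 2 isoform shares did not overlap, and the flip share of Gria2 gave p = 0.25 by the exact permutation test within numbers, the smallest it can give. Differences in flip share under that test were 0.893 points for Gria1, 3.60 for Gria2, -0.489 for Gria3 and 1.44 for Gria4. With 3 mice a group, the 95% intervals of the gene sums still allow changes as large as -14.3% (Cacng2) and 10.1% (Cnih2). The proportion of Cacng2 among the TARP genes did not overlap between genotypes with length less 200 bases (-0.495 points, unadjusted exact permutation p = 0.1). No share over all genes was computed for such proportions, and for single genes 12.2% of levels per length did not overlap. On the main scale this proportion overlapped, with an adjusted p of 0.912 by the exact permutation test over 31 shares and ratios. Isoform values rest on the annotated 3′ ends and on how RSEM divided the reads.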
